A study of Mus musculus with 46 samples.

Results

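The variant polycomb repressive complex PRC1.6 was followed through its 10 genes: Mga, L3mbtl2, Pcgf6, E2f6, Tfdp1, Rnf2, Ring1, Rybp, Yaf2 and Cbx3. They were taken by gene symbol from a list of the complex's subunits. All 10 were listed in both expression tables, which together hold 14888 genes. The cells were cultured mouse thyroid tumour lines, grown in DMEM with 10% fetal bovine serum. RP lines carry mutant Rb and p53, RPM lines carry mutant Rb, p53 and Max, and all 14 libraries share the mutant Rb and p53. The alleles were recombined in the mouse by a Cre that tamoxifen activates under Ascl control. There were 4 RP lines and 4 RPM lines, and a second experiment with 3 libraries given an empty vector and 3 given a Max vector (Max addback). All 6 libraries of the second experiment carry the animal identifier of RPM line replicate 2. They are therefore no sample of RPM lines in general. Whether all 6 come from cells of that 1 animal was not tested, and their Y-linked reads differ, as given below. Nothing in the labels says that these 6 came from separate transductions, so p-values there measure only the spread between the libraries, which may be technical. The other 32 samples of the series, tumours of the thyroid and pituitary, were not analysed here.

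PRC1.6 is a form of polycomb repressive complex 1, the enzyme that places ubiquitin on histone H2A. MGA is its scaffold: it binds DNA at E-boxes as a dimer with MAX and also has a T-box DNA-binding domain. E2F6, with its dimer partner TFDP1, brings the complex to E2F sites. PCGF6 defines this variant of the complex, RING1 and RNF2 (RING1B) are its alternative ubiquitin ligases, and RYBP and YAF2 are alternative partners of those ligases. L3MBTL2 is a chromatin-compacting subunit, and CBX3 (HP1 gamma) binds methylated histone H3. In most cells that are not germ cells, the complex keeps meiotic and other germline genes silent, among them Stag3, a cohesin subunit of meiosis.

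Library totals ranged from 6738614 to 8498396 reads over the listed genes. Max addback replicate 3 stood apart: a chi-square per degree of freedom, taken over all genes, was 15.5 and 13.2 against the other addback libraries, and 1.84 between those. Across genes, its difference from them fell with gene length (r = -0.66 over genes, which are not independent replicates). Member calls and list counts of the addback experiment that change without this library are given with and without it. Changes of size alone are given for some genes only. Lines of the same group differed from each other by 20.7 to 77.9 on the same measure. The animal identifier of RPM line replicate 1 also appears on a tumour labelled Rb and p53 mutant, and the line's own label was kept. C cell (calcitonin-producing cell) markers summed to 4021 to 16169 CPM in the 14 libraries with all 8 listed, whereas the endothelial and immune markers that are listed summed to at most 3.57 and 4.33 CPM. The 4 fibroblast markers listed, of 8, summed to 37.5 to 163 CPM in the RP lines and to 24.6 to 189 CPM in the RPM lines; their part in the member values was not tested. Y-linked genes summed to 410 to 423 CPM in the empty vector libraries and to at most 0.257 CPM with Max addback. What Max did and any other way in which these transduced cells differ therefore cannot be told apart. Whether both groups derive from the same cells was not tested.

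On GRCm38, Mga lies at chr2:119897228-119969581 on the plus strand, L3mbtl2 at chr15:81663889-81688315 (plus), E2f6 at chr12:16810963-16839742 (plus), Tfdp1 at chr8:13338751-13378448 (plus) and Cbx3 at chr6:51470360-51483704 (plus). On the minus strand, Pcgf6 lies at chr19:47033617-47050906, Rnf2 at chr1:151458004-151500955, Ring1 at chr17:34020792-34024680, Rybp at chr6:100228565-100287485 and Yaf2 at chr15:93284278-93336935. The values below are reads counted over each gene's exons. The 10 genes are therefore spread over 8 chromosomes, with Cbx3 and Rybp sharing 1 and L3mbtl2 and Yaf2 another.

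The promoters of 8 of the 10 genes were matched in RefSeq (GRCm38.p6); Rybp and Yaf2 are named only. Each window is 300 bases long, from 250 before to 50 after the start site. Windows were searched on both strands for an E-box that MAX dimers bind (CACGTG), a core E2F site (GCGGGAA) and a T-box core (AGGTGTGA). Of all 32851 promoters searched, 7.15% held the E-box, 4.6% the E2F letters and 1.28% the T-box letters. Among the members, Tfdp1 alone held an E-box, at the first of its 2 start sites, and none held the E2F or T-box letters. Of the 10 listed germline targets with a promoter among those searched, 5 held an E-box and 3 the E2F letters, at any of their start sites. Taf4b and Ccdc36 were not among these 10. The shares above are per promoter, so they are no exact background for counts of genes. The sequences below are those of E2f6 and Mga, which both fell with addback, of Tfdp1, and of Stag3 and Tdrd1 (first of 3 start sites), germline targets. Capitals mark matches; positions count from the start site. Stag3 has an E-box at -170 and an E2F match at -3, Tdrd1 an E-box at -11 and Tfdp1 an E-box at -231.
E2f6, chr12:16810715-16811014, plus strand: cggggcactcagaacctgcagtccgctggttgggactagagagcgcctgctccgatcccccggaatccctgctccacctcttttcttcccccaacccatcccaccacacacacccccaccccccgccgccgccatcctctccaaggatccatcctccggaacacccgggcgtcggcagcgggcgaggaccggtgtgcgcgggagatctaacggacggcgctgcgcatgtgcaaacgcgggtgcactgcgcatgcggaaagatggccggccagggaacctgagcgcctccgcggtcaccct
Mga, chr2:119896978-119897277, plus strand: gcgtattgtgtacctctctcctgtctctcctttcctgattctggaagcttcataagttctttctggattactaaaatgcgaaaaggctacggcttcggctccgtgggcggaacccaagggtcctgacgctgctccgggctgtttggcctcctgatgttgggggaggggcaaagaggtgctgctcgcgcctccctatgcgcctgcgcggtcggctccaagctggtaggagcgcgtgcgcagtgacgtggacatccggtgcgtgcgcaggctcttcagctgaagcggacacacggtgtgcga
Tfdp1, chr8:13338501-13338800, plus strand: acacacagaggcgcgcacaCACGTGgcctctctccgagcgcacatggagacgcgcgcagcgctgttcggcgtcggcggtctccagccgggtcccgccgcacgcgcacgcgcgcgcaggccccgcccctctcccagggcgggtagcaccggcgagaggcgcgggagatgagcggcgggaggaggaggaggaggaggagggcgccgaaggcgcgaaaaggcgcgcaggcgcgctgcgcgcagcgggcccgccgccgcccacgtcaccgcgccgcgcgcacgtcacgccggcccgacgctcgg
Stag3, chr5:138280259-138280558, plus strand: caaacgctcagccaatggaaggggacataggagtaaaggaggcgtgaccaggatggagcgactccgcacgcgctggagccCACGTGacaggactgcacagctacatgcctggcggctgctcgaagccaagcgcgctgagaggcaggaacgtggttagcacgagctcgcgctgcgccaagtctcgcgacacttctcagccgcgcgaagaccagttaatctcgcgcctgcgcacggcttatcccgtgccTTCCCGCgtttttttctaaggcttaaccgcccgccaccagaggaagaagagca
Tdrd1, chr19:56825959-56826258, plus strand: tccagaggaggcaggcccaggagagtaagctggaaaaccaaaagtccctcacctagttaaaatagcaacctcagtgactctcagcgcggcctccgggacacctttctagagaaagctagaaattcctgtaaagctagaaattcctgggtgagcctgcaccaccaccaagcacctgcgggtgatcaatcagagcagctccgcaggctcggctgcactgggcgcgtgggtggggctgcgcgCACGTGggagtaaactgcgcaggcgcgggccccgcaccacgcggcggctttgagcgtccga

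Levels per length were compared as RPKM, read counts scaled to gene length and to library depth. On that scale Tfdp1 was the most abundant member transcript in every group, with a mean of 58.9 to 75.0 RPKM. Yaf2 came next in the RP lines, the RPM lines and the addback libraries, at 26.8 to 26.9 RPKM. The order below them was loose in the lines: from Mga at 15.9 RPKM to L3mbtl2 at 9.04 RPKM in the RP lines, each gene's libraries overlapped those of the next. E2f6 changed place most. It ranked 7 of 10 in the RP lines at 10.5 ± 1.31 RPKM (SD, n = 4) and 4 in the RPM lines at 15.9 ± 4.59 RPKM (SD, n = 4). It ranked 2 in the empty vector libraries at 32.3 ± 1.02 RPKM (SD, n = 3) and 3 with Max addback at 16.1 ± 0.299 RPKM (SD, n = 3). Rybp was at 9.92 ± 1.19 RPKM (SD, n = 4) in the RP lines, 8.64 ± 3.51 RPKM (SD, n = 4) in the RPM lines, 5.16 ± 0.276 RPKM (SD, n = 3) with empty vector and 3.27 ± 0.452 RPKM (SD, n = 3) with addback. Cbx3 was the lowest member in both sets of lines, at 6.17 and 5.23 RPKM. Because the tables were normalised separately, levels set across them are descriptions only.

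**Figure D1:**
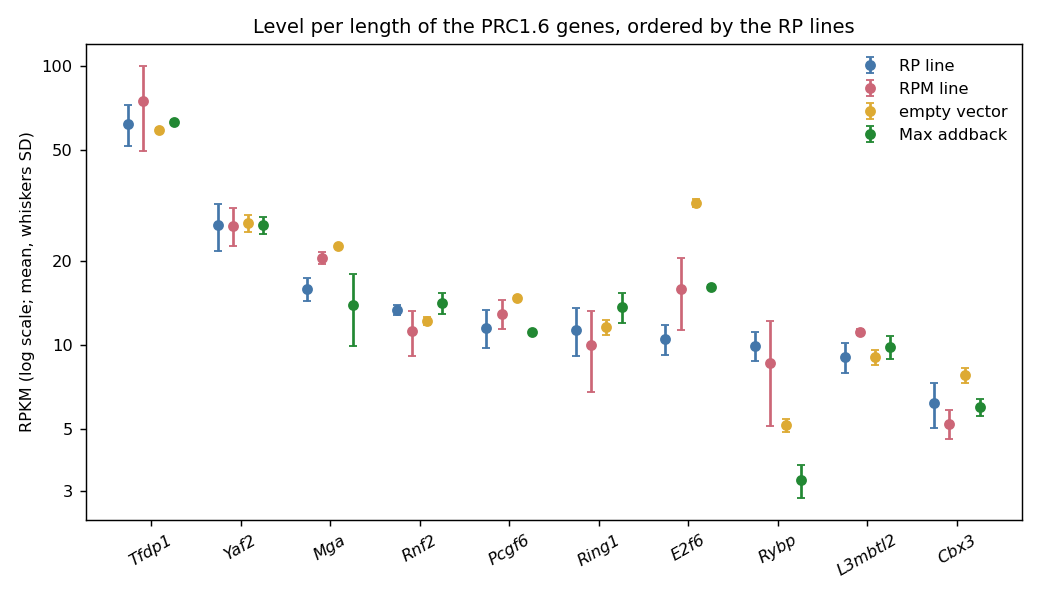
Mean RPKM (log axis) of the 10 PRC1.6 genes in 4 groups, with the SD as whiskers (n = 4 for lines, n = 3 for the vector experiment); genes are ordered by their mean in the RP lines. Tfdp1 lies on top in every group, and E2f6 and Rybp are spread widest between groups.

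Transcripts of the paralogous subunits were set against each other as shares of their summed RPKM. Ring1 made up 45.6% ± 5.16 (SD, n = 4) of Ring1 plus Rnf2 in the RP lines and 46.5% ± 10.8 (SD, n = 4) in the RPM lines. The same share was 48.6% ± 2.39 (SD, n = 3) with empty vector and 49.2% ± 3.71 (SD, n = 3) with addback. Single libraries of the lines ran from 35.6 to 60.9%, both in RPM lines, and those of the vector experiment from 45.8 to 53.15%. Yaf2 dominated its pair with Rybp: its share was 72.6% ± 5.48 (SD, n = 4) in the RP lines, 76.2% ± 5.96 (SD, n = 4) in the RPM lines, 84.1% ± 0.317 (SD, n = 3) with empty vector and 89.1% ± 1.91 (SD, n = 3) with addback. The addback and empty vector libraries did not overlap in this share (87.9 to 91.3% against 83.9 to 84.5%). Within the HP1 pair, Cbx3 was the minor transcript: Cbx1 took a mean of 83.6 to 90.2% of the sum in the 4 groups. RefSeq names 6 Cbx3 pseudogenes, and 1 each for Rybp and Tfdp1. The treatment of reads shared with such copies is not stated, so the levels of these genes are uncertain.

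Comparisons between groups used CPM, read counts scaled to library depth after TMM normalisation, a scaling that sets the bulk of genes level between libraries. RPM lines and RP lines were compared first, to ask whether the complex's own transcripts differ in tumour cells that carry mutant Max. Mga, L3mbtl2 and E2f6 were higher in every RPM line than in any RP line, and Rnf2 was lower in every RPM line, but none of the 10 passed the test across all genes (limma, Benjamini-Hochberg adjusted p under 0.05). Of all genes in this table, 0.334% passed it, in either direction, and 9.37% had groups that did not overlap. The count of members was 0 by edgeR on recovered reads and 1 by DESeq2, which called many more of all genes than limma did, as given in the last section. At an unadjusted limma p under 0.05 there were 3, beside 15.9% of all genes. The median change of the members was 0.09 (log2 scale) beside -0.01 over all genes. In bulk RNA, a smaller share of cells and less RNA per cell cannot be told apart. Max itself averaged 54.6 CPM in the RP lines and 88.2 CPM in the RPM lines (log2 change 0.68, limma adjusted p = 0.161, DESeq2 adjusted p = 0.0202). Reads summed over a whole gene check no deletion of some of its exons.

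Of the DNA-binding subunits, Mga and E2f6 separated the groups and Tfdp1 did not. Mga, the scaffold, was at 260, 211, 244 and 260 CPM in RP lines 1 to 4 and at 300.4, 307, 313 and 335 CPM in RPM lines 1 to 4. The RPM lines were all above the RP lines, and the log2 change was 0.37 ± 0.11 (SE; limma adjusted p = 0.195). DESeq2 gave the same size, 0.36, with an adjusted p of 0.0187. E2f6 was at 52.0, 66.5, 54.1 and 65.1 CPM in the RP lines and at 75.5, 129, 77.8 and 77.7 CPM in the RPM lines. Its groups did not overlap either, and RPM line 2 lay far above the other 3. The log2 change of E2f6 was 0.56 ± 0.19 (SE; limma adjusted p = 0.242), and 0.38 without RPM line replicate 2. Tfdp1, the E2F dimer partner, ranged from 184 to 274 CPM in the RP lines and from 210 to 411 CPM in the RPM lines. These ranges overlapped, and only RPM line 4 lay above all the RP lines (log2 change 0.23 ± 0.23, SE; limma adjusted p = 0.637), and the change was 0.023 without that line (limma adjusted p = 0.967).

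Among the remaining subunits, L3mbtl2 was at 46.9, 61.3, 56.6 and 50.05 CPM in the RP lines and at 66.1, 68.8, 65.0 and 65.5 CPM in the RPM lines. All RPM lines lay above all RP lines, within a narrow range (log2 change 0.31 ± 0.12, SE; limma adjusted p = 0.286). The exons of L3mbtl2 overlap those of Chadl on the opposite strand, and those of Rnf2 overlap Trmt1l in the same way. The counting is not stated to use strand, so reads of these pairs cannot be told apart. Rnf2 was at 54.0, 54.8, 58.4 and 53.5 CPM in the RP lines and at 52.4, 52.9, 35.3 and 44.0 CPM in the RPM lines. RPM lines 1 and 2 were only just below the RP lines (log2 change -0.27 ± 0.15, SE; limma adjusted p = 0.415). For Pcgf6, Ring1, Cbx3, Rybp and Yaf2 the groups overlapped, with log2 changes from -0.28 to 0.17 and limma adjusted p from 0.562 to 0.991. Pcgf6, at 45.3 to 67.2 CPM in the RP lines and 54.3 to 72.6 CPM in the RPM lines, was lowest in line 2 of either group. Ring1 ranged from 27.8 to 45.6 CPM in the RP lines and from 19.1 to 43.2 CPM in the RPM lines. Cbx3 ranged from 28.6 to 45.0 and from 26.9 to 34.8 CPM, and Yaf2 from 36.9 to 60.5 and from 42.2 to 60.7 CPM. These ranges lay largely on top of each other. Rybp was the most variable member among RPM lines, at 37.6, 21.4, 43.0 and 61.8 CPM, a coefficient of variation of 40.6%, beside 12.04% among the RP lines. Its log2 change of -0.28 was -0.0095 without RPM line replicate 2 and -0.50 without RPM line replicate 4. RPM line 2, whose identifier the libraries of the vector experiment carry, had the lowest Rybp and the highest E2f6 of the 8 lines.

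**Figure D2:**
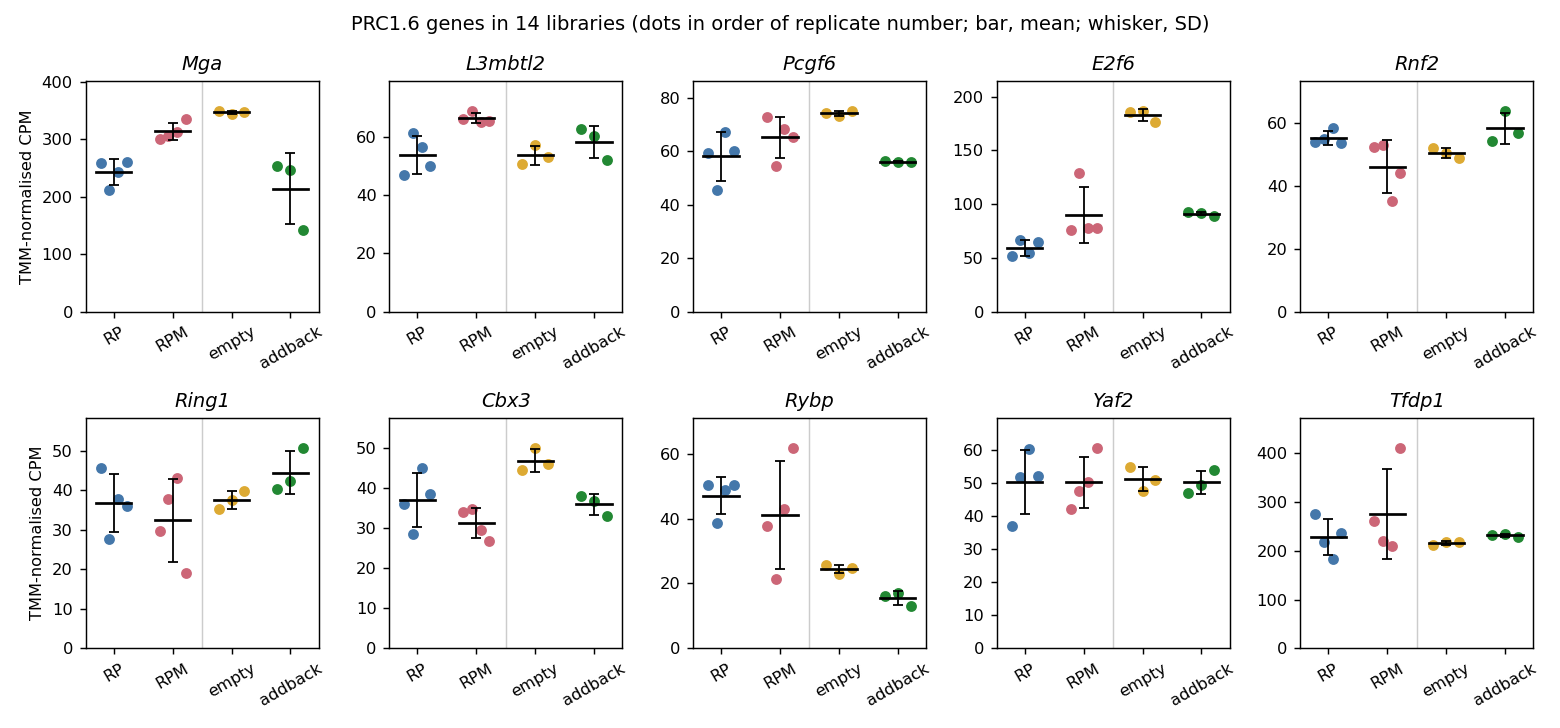
TMM-normalised CPM (linear axes from 0) of each PRC1.6 gene in the 14 libraries; dots are libraries in order of replicate number, bars the group mean and whiskers the SD. The left and right pairs of groups come from tables normalised separately. E2f6 fell from 176 to 187 CPM with empty vector to 89.3 to 92.4 CPM with addback, and the low addback dot of Mga is replicate 3.

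Addback asked the reverse question: how the same transcripts differ between cells with mutant Max given a Max vector or an empty vector. Both groups carry the identifier of RPM line 2, but their Y-linked reads differ, as given above. Max was at 86.3, 83.1 and 96.0 CPM with empty vector and at 251, 250 and 220 CPM with the Max vector. The increase was 1.43 ± 0.09 (log2, SE; limma adjusted p = 5.75e-07), and reads of the vector and of the gene cannot be told apart. Of the 10 members, E2f6, Mga, Rybp, Pcgf6 and Cbx3 fell (5) and 0 rose. The number that rose was also 0 by edgeR and by DESeq2, and 1 had an unadjusted limma p under 0.05, as did 30.2% of all genes in that direction. Over all genes, 25.5% fell and 27.7% rose, and 61.9% had groups that did not overlap. The median change of the members was -0.20 (log2 scale) beside 0.00 over all genes. The authors' deposited table calls 3 of the 10 lower, E2f6 (log2 change -1.003), Mga (-0.70) and Rybp (-0.65), and none higher. Pcgf6 (-0.40) and Cbx3 (-0.38) are not called there, although the authors' FDR was 0.00146 and 0.00446. Their calls therefore do not rest on an FDR under 0.05 alone. Without Max addback replicate 3 the same 5 fell and 2 rose, L3mbtl2 and Rnf2. The shares of all genes above belong to the test with all libraries and are no background for these counts. The summed C cell markers also moved with the groups, from 4337 to 4593 CPM with empty vector to 5650 to 6406 CPM with addback. The 4 listed fibroblast markers summed to 33.7 to 44.3 and 17.04 to 20.9 CPM. Of these, Dcn (28.6 and 5.70 CPM) and Col1a1 (4.99 and 0.633 CPM) had lower means with addback, and Pdgfrb (0.537 and 5.08 CPM) and Thy1 (4.80 and 7.56 CPM) higher ones. The part of either marker list in the member changes was not tested.

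E2f6 had the largest member change. It was at 186, 187 and 176 CPM with empty vector and at 92.4, 92.0 and 89.3 CPM with Max addback. The groups lay far apart with little spread within either, and the log2 change was -0.99 ± 0.07 (SE; limma adjusted p = 1.59e-06). It stayed between -0.96 and -1.02 under every alternative run. Mga was at 349, 344 and 349 CPM with empty vector and at 254, 246 and 143 CPM with addback. All addback libraries were below the empty vector libraries, and replicate 3 was far below the other 2. The log2 change of Mga was -0.74 ± 0.18 (SE; limma adjusted p = 0.00714), and -0.47 ± 0.05 (SE; limma adjusted p = 7.64e-08) without replicate 3. Tfdp1 was at 212, 218 and 219 CPM with empty vector and at 232, 234 and 228 CPM with addback. Its groups did not overlap, but the change of 0.10 ± 0.07 (log2, SE) did not pass (limma adjusted p = 0.243).

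Mga's level in addback replicate 3 has to be read beside gene length. At 15.3 kb of exons, Mga is longer than 97.6% of listed genes, while the other 9 members span 1.87 to 5.99 kb. Genes of 8 kb and over lay 0.315 lower (log2, median) in addback replicate 3 than in the other addback libraries, and genes under 1 kb lay 0.391 higher. Mga lay 0.80 lower in that library than the mean of the other 2. With a length trend removed from every library, the change of Mga was -0.62 ± 0.09 (SE; limma adjusted p = 6.81e-05). The part of transcript length in Mga's level in replicate 3 was not tested.

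**Figure D3:**
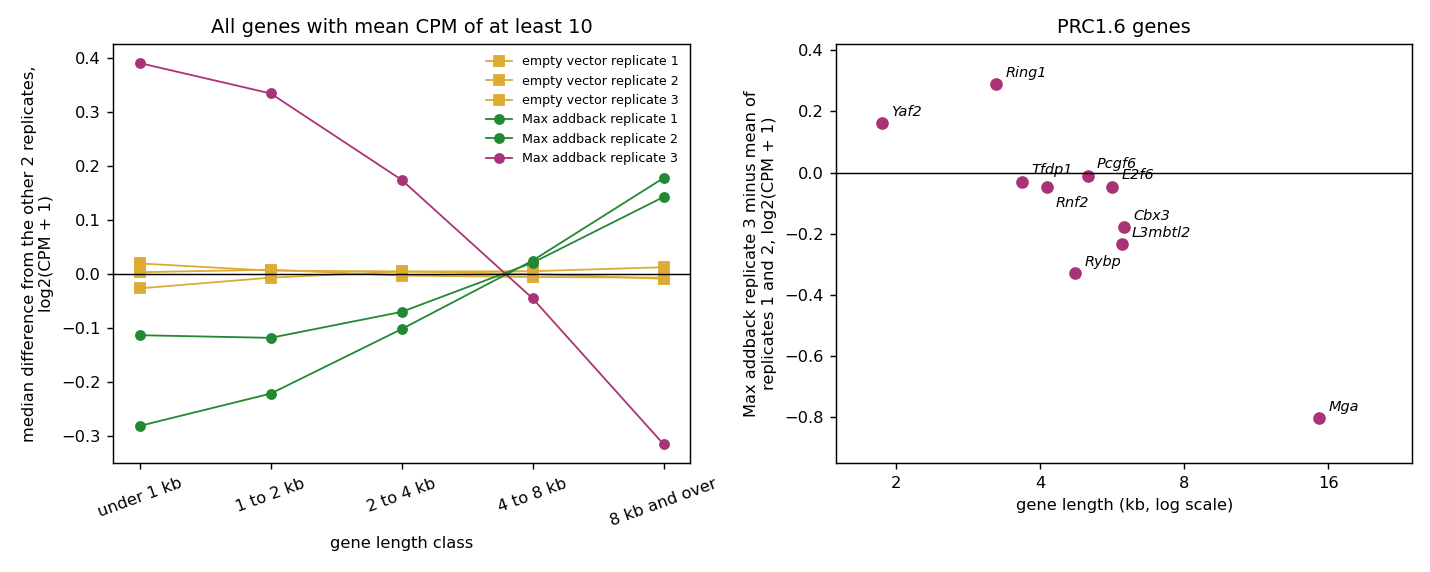
Left, median difference in log2(CPM + 1) of each library from the mean of the other 2 replicates, by gene length class, for genes with a mean CPM of at least 10; right, the difference of Max addback replicate 3 from the mean of replicates 1 and 2 for each PRC1.6 gene against its length (log axis). The line of replicate 3 runs from 0.391 for genes under 1 kb to -0.315 for genes of 8 kb and over, and Mga is the lowest member at -0.80.

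Pcgf6, the subunit that defines the variant, was at 74.3, 73.0 and 75.0 CPM with empty vector and at 56.3, 56.0 and 55.8 CPM with addback. Both groups were tight and separate (log2 change -0.40 ± 0.07, SE; limma adjusted p = 0.00112). Rybp was at 25.6, 23.0 and 24.7 CPM with empty vector and at 16.3, 17.2 and 13.1 CPM with addback. Every addback library was below every empty vector library (log2 change -0.63 ± 0.12, SE; limma adjusted p = 0.00184). Its partner paralog Yaf2 was at 55.0, 47.7 and 50.8 CPM with empty vector and at 47.2, 49.4 and 54.1 CPM with addback, with overlapping groups (log2 change -0.03 ± 0.09, SE; limma adjusted p = 0.822). Cbx3 was at 44.4, 50.01 and 46.0 CPM with empty vector and at 37.9, 36.9 and 32.9 CPM with addback. These groups did not overlap (log2 change -0.38 ± 0.09, SE; limma adjusted p = 0.00708).

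The ligases and L3mbtl2 lay in the opposite direction. Rnf2 was at 52.0, 50.4 and 48.7 CPM with empty vector and at 54.3, 63.8 and 56.9 CPM with addback. The addback libraries were all higher, by 0.20 ± 0.09 (log2, SE; limma adjusted p = 0.0734), and by 0.22 without replicate 3 (limma adjusted p = 0.0202). Ring1 was at 35.2, 37.5 and 39.8 CPM with empty vector and at 40.4, 42.3 and 50.8 CPM with addback. Its libraries did not overlap, though by a small gap, and the difference of 0.24 ± 0.11 (log2, SE) did not pass (limma adjusted p = 0.0862). With the length trend removed it was 0.27 (limma adjusted p = 0.0137), and without replicate 3 it was 0.14 (limma adjusted p = 0.154). L3mbtl2 was at 50.6, 57.1 and 53.1 CPM with empty vector and at 62.7, 60.2 and 52.0 CPM with addback. Only replicate 3 fell within the empty vector range (log2 change 0.12 ± 0.10, SE; limma adjusted p = 0.329), and without it the change was 0.19 (limma adjusted p = 0.0261).

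The experiments share no library, although the vector libraries carry the identifier of RPM line 2. Their changes can be set side by side as RPM minus RP and as empty vector minus Max addback. The difference between these changes was tested for each of 13528 genes in both tables, of which 15.1% passed. None of the 10 members passed, by limma with a weight for each table or by voom on recovered reads, and 4 (L3mbtl2, E2f6, Cbx3 and Rybp) had an unadjusted p under 0.05. Of all genes, 30.2% had one. Mga was higher by 0.37 in RPM than in RP lines and by 0.74 with empty vector than with addback (difference -0.37 ± 0.34, SE; limma adjusted p = 0.506). Without addback replicate 3 the second value was 0.47 and the difference -0.10 (limma adjusted p = 0.562). E2f6 was higher by 0.56 and by 0.99 (difference -0.43 ± 0.19, SE; limma adjusted p = 0.135). Rybp was lower by 0.28 in RPM than in RP lines but higher by 0.63 with empty vector than with addback, and Cbx3 was lower by 0.22 and higher by 0.38. The tests of these differences, -0.91 ± 0.31 and -0.60 ± 0.20 (SE), gave limma adjusted p of 0.0647 and 0.0611. Such values do not show that the experiments gave the same change. L3mbtl2 was higher by 0.31 in RPM lines and lower by 0.12 with empty vector (difference 0.42, limma adjusted p = 0.119), and without addback replicate 3 its difference passed (0.50, limma adjusted p = 0.0416).

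**Figure D4:**
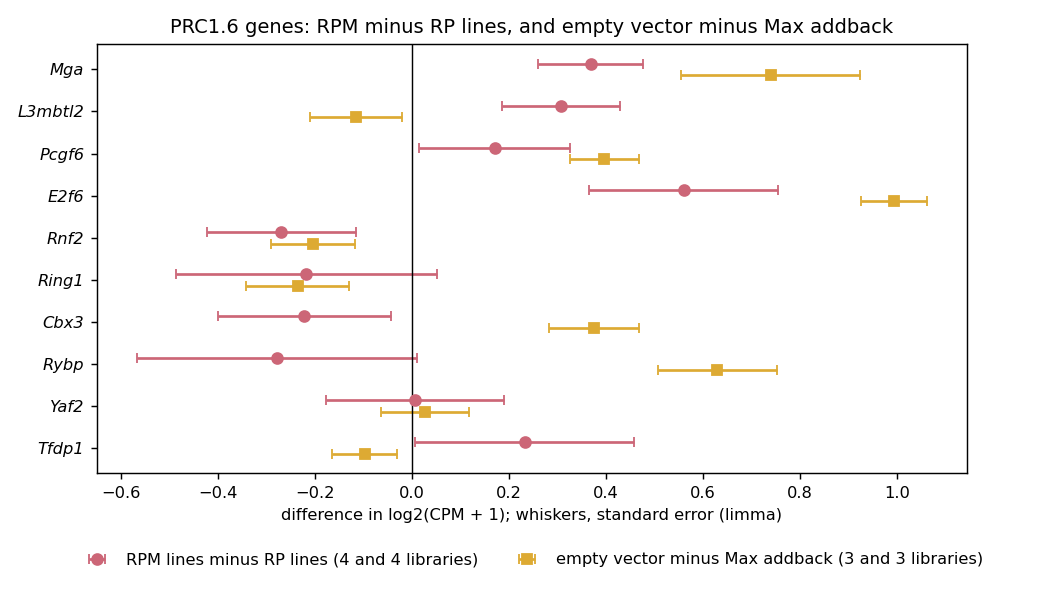
Difference in log2(CPM + 1) of each PRC1.6 gene in the lines (circles, RPM minus RP, 4 and 4 libraries) and in the vector experiment (squares, empty vector minus Max addback, 3 and 3 libraries), with limma standard errors. Mga, Pcgf6 and E2f6 lie right of 0 in both, Rnf2 and Ring1 left of 0 in both, and Rybp, Cbx3, L3mbtl2 and Tfdp1 on opposite sides.

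Across the 14 libraries, centred within each table, the member levels most like Mga were E2f6 (Pearson r = 0.72) and Pcgf6 (r = 0.69), and the least like it was Rnf2 (r = -0.50). These r values describe libraries that share lines and depth, with 3 replicates of a vector in each of 2 groups. Values were not centred within each group, so r includes the differences between groups. Over the 8 lines alone, r with Mga was 0.57 for E2f6, 0.61 for Pcgf6, 0.52 for Tfdp1 and 0.51 for L3mbtl2. Over the vector libraries alone the order differed: 0.95 for Rybp, 0.92 for Cbx3, 0.83 for E2f6 and 0.82 for Pcgf6. There Ring1 was the least like Mga (r = -0.94), with Rnf2 at -0.60. Among 9741 genes with a mean of at least 10 CPM in both tables, E2f6 ranked 356 and Pcgf6 494 by likeness to Mga. The 5 most alike were Zfp106, Nedd4, Tasor2, Atm and Mdn1, with r from 0.94 to 0.95. Their lengths, 10.3 to 21.8 kb, put all 5 among long genes as Mga is. The part of length in this likeness was not tested.

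The rest of the polycomb machinery was described by counts over lists of its genes. In the lines, 0 of 10 other PRC1.6 partners, 0 of 26 other PRC1 subunits and 0 of 12 PRC2 subunits passed in either direction, by limma. At an unadjusted p under 0.05 the numbers were 4, 2 and 1, beside 15.9% of all genes. With edgeR the count was also 0, and with DESeq2 it was 2 partners and 1 PRC2 subunit, all higher. Max itself was 1 of these 2 partners. DESeq2 called many more of all genes than limma did, as given in the last section. With Max addback, 4 of the 10 partners rose, beside 27.7% of all genes. Max, the gene on the vector, was among them, so its rise was set by the design and is no result about the partners. Another 2 fell, beside 25.5% of all genes: the histone demethylase gene Kdm5c (230 to 172 CPM, log2 change -0.43) and the E2F dimer partner gene Tfdp2 (144 to 116 CPM, -0.32). Kdm5c was at 241, 216 and 234 CPM with empty vector and at 191, 189 and 135 CPM with addback. Without addback replicate 3 the change of Kdm5c was -0.27 (limma adjusted p = 0.000261) and that of Tfdp2 -0.23 (limma adjusted p = 0.00115). Without empty vector replicate 1, 2 or 3 the partners that rose numbered 2, 1 and 1 and those that fell 1, 2 and 0, and 2 rose without addback replicate 1. Of other PRC1 subunits, 8 rose and 4 fell of 26. Phc3, a polyhomeotic subunit of canonical PRC1, fell from 198 to 105 CPM (log2 change -0.93, and -0.71 without addback replicate 3). The PCGF subunit gene Bmi1 rose from 139 to 199 CPM (0.51, and 0.57 without that library). Of PRC2 subunits, 0 rose and 8 fell of 12, with a list median of -0.32 (log2 scale). Ezh2, the main methyltransferase, went from 304 to 186 CPM (log2 change -0.70), Phf19 from 69.4 to 40.3 CPM (-0.77) and Ezh1 from 59.0 to 40.3 CPM (-0.54). Without addback replicate 3, 1 PRC2 subunit rose and 9 fell, 11 other PRC1 subunits rose and 6 fell, and 5 partners rose and 2 fell. The shares of all genes above belong to the test with all libraries and are no background for counts with a library left out.

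Germline targets of the complex were the last group. Of 28 such genes, 12 were listed in each table, which in itself is a choice by expression. In the RPM lines 4 of the 12 were higher and 0 lower, with a list median of 1.74 (log2 scale), beside 0.209% of all genes higher. These were Tdrd1 (log2 change 4.99), Rbm46 (3.87), Ccdc36 (3.25) and Taf4b (2.35), with limma adjusted p from 0.0325 to 0.0490. Their means in the RP lines were low, at 1.18 to 2.65 CPM. Genes this low there may be listed only through their RPM values, which favours higher over lower. The list was also chosen with earlier results of these data known. The count and the median are therefore descriptions, and the share of all genes is no background for them. The count of targets called higher was 0 by edgeR, 5 by DESeq2, 2 with a pseudocount of 0.25 and 3 with the length trend removed. It was also 0 when any 1 line other than RP line replicate 4 or RPM line replicate 1 was left out, and 4 and 5 without these. DESeq2 called many more of all genes as well, as given in the last section. With Max addback 2 of 12 rose and 4 fell, beside 27.7% and 25.5% of all genes. Without addback replicate 3 the numbers were 3 and 4, and those shares of all genes belong to the test with all libraries. Tdrd1, a Tudor-domain gene of the germline whose promoter is shown above, was at 121, 121 and 126 CPM with empty vector and at 26.7, 28.3 and 24.03 CPM with addback (log2 change -2.18 ± 0.09, SE; limma adjusted p = 3.41e-08). Taf4b fell from a mean of 37.1 to 14.6 CPM with addback (log2 change -1.30, limma adjusted p = 3.62e-05). Stag3 was at 482, 490 and 499 CPM with empty vector and at 283, 252 and 234 CPM with addback (log2 change -0.94 ± 0.09, SE, limma adjusted p = 1.12e-05). In the table of the lines, Stag3 was at 3.01, 1.20, 0 and 46.6 CPM in the RP lines and at 320, 356, 305 and 273 CPM in the RPM lines. The groups did not overlap, and RP line 4 lay far above the other RP lines. The log2 change was 6.11 (limma adjusted p = 0.0562), and 7.24 without RP line replicate 4 (limma adjusted p = 0.00126). Zcwpw1, a reader of meiotic histone marks, rose from 10.9, 9.95 and 9.31 CPM to 31.5, 29.5 and 29.04 CPM. Smc1b, a meiotic cohesin gene, also rose, from at most 2 reads in an empty vector library to 9, 13 and 9 reads. With a minimum mean of 1 CPM, Smc1b was not tested, and 1 of 10 targets rose and 4 fell. No promoter window of Zcwpw1 or Smc1b held an E-box, and that of Smc1b held an E2F match at -48. The part of these letters in the changes was not tested. The list's median change with addback was -0.14 (log2 scale).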

How the data were processed

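RNA-seq values of 14 cell libraries were used. Per the submitters' processing notes, bcl2fastq 1.8.4, TopHat2 2.1.0, HTSeq 0.6.1 and edgeR (version not given) were used with genome build mm10; the annotation release and the gene filter are not stated. Per the file headers, the deposited signal is CPM with TMM normalisation for each gene and library, in 1 table of 14360 genes (lines) and 1 of 14056 (addback), normalised separately. Per the file headers, the deposited RPKM values scale the same levels to gene length, and further columns hold the authors' log2 fold changes, p-values and FDR values, and a score of -1, 0 or 1 for their calls.

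Each CPM value divided by the value of 1 read gave a whole count within 0.01 read for 100% of values; 3 reads correspond to 0.353 to 0.458 CPM. Groups came from the sample titles and genotypes. Both comparisons were fitted separately across all listed genes with limma 3.58.1 (trend) on log2(CPM + 1), two-sided, Benjamini-Hochberg adjusted p under 0.05; the pseudocount of 1 understates changes of low genes. The difference between the comparisons used limma with array weights per table. Alternatives were edgeR 4.0.16 and DESeq2 1.42.0 on the recovered reads, a pseudocount of 0.25, a minimum mean of 1 CPM, median-of-ratios scaling, a replicate block, leaving out each library, and, chosen after seeing the data, removal of a gene length trend. The fits were tested on simulated data, with planted changes larger than any member change of the main tests. This does not show what the fits can find at the sizes of the member changes. Coordinates are from GENCODE vM21 or RefSeq on GRCm38, which mm10 names.

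The members and gene lists were chosen with earlier results of these data known. Named genes were all members, Max, Stag3, the 3 largest calls of each other list (5 for germline targets) and the 5 genes most like Mga.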

Additional observations from a re-analysis of the deposited data

Results flagged for a closer look

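In 4 replicates, a library was taken as standing apart when its gap to the nearest other exceeded Dixon's 95% critical share of the group's range, which chance alone gives in about 1 group of 20. Of 52 groups checked (the members and the named genes in the lines), 8 had such a library. Among the members, E2f6 in RPM line replicate 2 was at 129 CPM, above the other 3 RPM lines at 75.5 to 77.8 CPM. Rybp in RP line replicate 2 was at 38.6 CPM, below the other RP lines at 48.8 to 50.4 CPM. RP line replicate 4 was the highest RP line for Tdrd1 (4.71 CPM), Stag3 (46.6 CPM), Csnk2a1 (107 CPM) and Phf19 (68.3 CPM). Among the RPM lines, Rbm46 was highest in replicate 1 (48.4 CPM) and Ezh1 in replicate 4 (59.7 CPM).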

How the results depend on the processing

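The 5 members that fell with addback, E2f6, Mga, Rybp, Pcgf6 and Cbx3, passed in all 13 alternatives run. No member passed in the lines except Mga with DESeq2, where 1 member was called higher. Members called higher with addback numbered 2 with the length trend removed and 0 to 2 when a library was left out; members that differed between the comparisons numbered 0 to 1. Genes called in the lines were 30 higher and 18 lower in the main test, 1 and 2 with edgeR, 352 and 305 with DESeq2, 0 and 0 with a replicate block (0 of the germline targets), and 0 to 77 and 0 to 184 when a line was left out; the cause was not tested. Replicate numbers did not pair the libraries: same-number correlations were 0.01 to 0.41 in the lines and 0.02 to 0.08 with addback, and not every library matched its own number best. Sign changes were all of values that did not pass. For Yaf2 in the lines the change was -0.003 with edgeR, -0.0054 with DESeq2 and -0.078 with the length trend removed, and ran from -0.13 to 0.10 when a line was left out. Yaf2 with addback was 0.034 with the length trend removed and ran from -0.081 to 0.025 when a library was left out. Ring1 in the lines ran from -0.37 to 0.0057. The difference between comparisons ran from -0.074 to 0.057 for Yaf2 and from -0.079 to 0.039 for Ring1 without RPM line replicate 1 or Max addback replicate 3. The fewest reads behind a member's value were 102, for Rybp in an addback library.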
